A study of Mus musculus with 24 samples.

Results

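Postsynaptic scaffolds and synaptic adhesion molecules were examined as 39 genes, listed by symbol, of the 37991 gene identifiers counted. Of these, 16 encode scaffolds and 23 encode adhesion proteins. The second group was divided into 13 genes listed as trans-synaptic, for adhesion across the synaptic cleft, and 10 other neuronal adhesion genes. Some of those 10, such as the Cadm genes, also act across the cleft. Levels were measured by mRNA sequencing of whole cerebellum from male mice of the inbred strain C57BL/6J, with 2 libraries at 7 weeks and 2 at 79 weeks of age. The labels give no treatment or genetic change in either group. Whether libraries of the same age stem from different animals is not stated, so each p-value reflects only how far these 4 libraries scatter, and that scatter may be technical. The 20 genomic samples of the series, which cover cytosine methylation and hydroxymethylation, were not analysed here.

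A synapse is held together by adhesion proteins whose outer parts meet in the cleft and whose inner tails bind scaffolds. On the receiving side of excitatory synapses, the Dlg proteins anchor receptors, the Dlgap proteins link Dlg to Shank, and Shank proteins join this layer to the actin skeleton, while gephyrin organises the receptors of inhibitory synapses. Neurexins on the sending side pair with neuroligins and Lrrtm proteins, and latrophilins pair with Flrt proteins. In the cerebellum these proteins serve the synapses of parallel and climbing fibres on Purkinje cells, those of mossy fibres on granule neurons and those of local inhibitory interneurons.

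Expression of these genes was lower at 79 than at 7 weeks in 8 of the 39 and higher in 0, by edgeR's quasi-likelihood test with an adjusted p under 0.05. The genes that fell were the scaffold genes Dlg2, Dlgap4, Shank2 and Gphn, the adhesion genes Lrrtm3, Lphn3 and Nlgn3, and the axonal adhesion gene Nrcam. Lrrtm3 was reduced to 0.485 of its 7-week level and the other 7 to between 0.715 (Dlg2) and 0.863 (Dlgap4). The remaining 31 were not called. Over all 15292 genes tested, 4.68% were called lower, 4.17% higher and 8.84% in either direction, against 20.5% of the members called lower. The members were chosen with earlier results of these data known, so this contrast is a description and not a test. The higher share of all calls was 47.1%, and 65.1% when counts were scaled by library size alone, where 5 members were called lower. No member was higher by DESeq2 or limma-voom either, and by edgeR 0 had a higher level at an unadjusted p under 0.05 (1 scaffold by DESeq2), while 20 had a lower one. The share of all genes lower at that unadjusted threshold was 13.5%. In bulk tissue, fewer cells of a type and less RNA per cell cannot be told apart.

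RefSeq promoter windows, which run from 250 bases before to 50 after a gene's start on build GRCm38.p6, were found for 29 members and for 6 of the 8 that fell. Since the series was made to measure cytosine methylation, which in mammals falls mostly on CpG, the windows of 4 genes that fell are shown with each CpG in capitals, to show how unlike their promoters are, as a description with no test. Where a gene has several windows, the first one in the table was taken. They are, in the direction of transcription, Lrrtm3 at chr10:64090206-64090505 on the minus strand, and, on the plus strand, Dlg2 at chr7:91090536-91090835, Dlgap4 at chr2:156720715-156721014 and Gphn at chr12:78226405-78226704.
Lrrtm3: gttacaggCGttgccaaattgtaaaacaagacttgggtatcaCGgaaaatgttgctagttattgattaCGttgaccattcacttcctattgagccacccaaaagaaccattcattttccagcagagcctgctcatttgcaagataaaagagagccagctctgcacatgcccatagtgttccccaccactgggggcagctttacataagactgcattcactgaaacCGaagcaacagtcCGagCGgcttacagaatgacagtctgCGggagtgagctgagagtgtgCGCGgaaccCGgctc
Dlg2: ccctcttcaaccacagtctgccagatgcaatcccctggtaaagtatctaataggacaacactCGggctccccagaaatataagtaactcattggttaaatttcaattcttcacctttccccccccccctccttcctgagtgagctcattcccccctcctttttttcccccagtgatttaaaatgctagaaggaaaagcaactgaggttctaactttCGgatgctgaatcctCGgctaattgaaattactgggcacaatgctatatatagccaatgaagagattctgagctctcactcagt
Dlgap4: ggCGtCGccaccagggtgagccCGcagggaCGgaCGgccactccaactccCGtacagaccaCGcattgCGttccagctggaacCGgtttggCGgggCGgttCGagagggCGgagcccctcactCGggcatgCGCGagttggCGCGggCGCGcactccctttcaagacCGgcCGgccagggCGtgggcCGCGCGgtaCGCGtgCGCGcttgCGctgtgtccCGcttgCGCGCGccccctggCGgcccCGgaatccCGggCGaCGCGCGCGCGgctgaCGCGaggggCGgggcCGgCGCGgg
Gphn: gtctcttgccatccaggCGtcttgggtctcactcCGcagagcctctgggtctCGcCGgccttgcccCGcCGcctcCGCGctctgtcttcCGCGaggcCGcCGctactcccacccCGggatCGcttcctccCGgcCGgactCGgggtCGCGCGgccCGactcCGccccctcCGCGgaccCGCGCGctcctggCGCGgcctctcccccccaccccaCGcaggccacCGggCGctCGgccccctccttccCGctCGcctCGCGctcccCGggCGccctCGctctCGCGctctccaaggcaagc

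The genes that fell did not share one kind of promoter. Dlg2 had 3 CpG and a GC content of 44.7%, and Lrrtm3 had 10 CpG and 48.7%. Dlgap4 had 50 CpG at 76.3% GC, Gphn 42 at 77%, Lphn3 40 at 75.3% and Nrcam 37 at 74%. The median was 14 CpG over the first windows of the 29 members and 7 over those of all 27025 genes in the table. Genes with dense and with sparse windows thus both fell, as the plot of CpG count against change shows, and Ncam2, with 41 CpG and a log2 fold change of -0.59, was not called. Motifs were searched on both strands by their letters. The Dlg2 window held the CCAAT box (CCAAT, once on each strand), found in 37.9% of all genes' first windows and in 5 of the 29 of members, and the Dlgap4 window held the GC box (GGGGCGGGG, 11.6%) and the core of the NRF1 motif (GCGCATGC, 2.80%). The Lrrtm3, Gphn, Lphn3 and Nrcam windows held none of these letters, nor those of the other 5 motifs searched: the cAMP response element (TGACGTCA, in 1.88% of all genes' first windows), the E-box (CACGTG, 7.24%), the AP-1 motif (TGANTCA, 7.93%), the EGR1 motif (GCGTGGGCG, 0.625%) and the TATA box (TATAAA, 14.2%). No 2 matches overlapped in the windows shown.

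**Figure D1:**
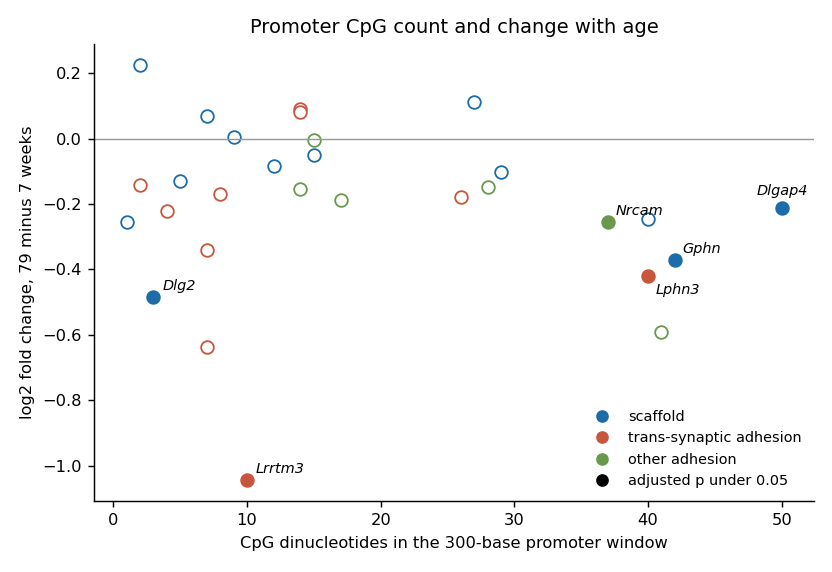
The horizontal axis gives the number of CpG in the first 300-base promoter window of 29 members and the vertical axis the log2 fold change, 79 minus 7 weeks; colours mark the class and filled points the called genes. Dlg2 and Lrrtm3 lie at 3 and 10 CpG, and Nrcam, Lphn3, Gphn and Dlgap4 at 37 to 50.

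Between 16367656 and 22826993 reads per library were assigned to genes, and all 39 members passed the low-count filter. Levels are CPM (a gene's reads scaled to one common library size, with TMM, a correction for library composition), which are not divided by transcript length, so they are compared between ages and not between genes. The cells that mark a cerebellum were present. Markers of granule neurons summed to 7905 and 7761 CPM at 7 weeks and 6782 and 6447 CPM at 79 weeks, with 5 of 12 called lower and 1 higher, and Purkinje cell markers to 12340 and 12980 CPM, then 11290 and 11470 CPM, with 5 of 12 lower. Unipolar brush cell markers were at 1483 to 1537 CPM at 7 weeks and at 1199 to 1219 CPM at 79 weeks, with 3 of 6 lower and 1 higher. Myelinating oligodendrocyte markers were at 5972 to 6351 CPM and then at 3814 to 5370 CPM, with 5 of 10 lower, and those of oligodendrocyte precursors at 161 to 181 CPM and then 125 to 134 CPM, with 2 of 8 lower. Microglia markers were at 142 to 157 CPM and then 250 to 307 CPM, with 7 of 10 higher. Markers of inhibitory interneurons (1784 to 2013 CPM over all libraries), endothelial cells and pericytes (266 to 301 CPM) and red blood cells (29.0 to 55.2 CPM) had 0 called by edgeR (2, 1 and 2 higher at an unadjusted p under 0.05), and those of Bergmann glia and astrocytes (3876 to 4502 CPM) had 2 of 10 higher and 1 lower. The library of 79-week replicate 1 stood apart in choroid plexus markers, at 5406 CPM against 17.3 to 40.3 CPM in the other 3, and was also the highest in markers of meninges (1320 against 835 to 1036 CPM) and of ependyma (55.7 against 19.5 to 25.1 CPM). Brainstem and midbrain neuron markers ranged from 2.18 to 38.5 CPM, with Hoxb5 and Chat at 0 in every library. The part of these shifts in the members' changes was not tested. Without 79-week replicate 1, 4 scaffold and 4 adhesion members were called, Dlgap3 among them as higher, and 6 of the 8 genes that fell stayed called.

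Scaffold genes and adhesion genes leaned the same way. Of the scaffolds 4 of 16 fell (25%), and of the trans-synaptic adhesion genes 3 of 13 fell (23.1%), while 1 of the 10 other adhesion genes fell (10%). Over all genes tested the share called lower was 4.68%. The median log2 fold change was -0.12 for scaffolds, -0.22 for trans-synaptic adhesion genes and -0.17 for the other adhesion genes, beside 0.01 for all genes tested. Relative to the 7-week mean, the median scaffold stood at -0.15 and -0.12 in 79-week replicates 1 and 2, the median trans-synaptic gene at -0.20 and -0.19, and the median of the other adhesion genes at -0.16 and -0.18. So the shift was present in both aged libraries, as the plot of members by library shows. Both 79-week levels lay below both 7-week levels in 10 scaffolds and 16 adhesion genes, or 66.7% of the members against 28.7% of all genes tested. Both lay above in 3 members, Dlg1, Magi1 and Cadm1, against 29.1% of all genes, and the ages overlapped in 10. Moving Ctnnd2, whose product is a catenin on the inner face of adhesion sites, to the scaffolds gave medians of -0.13 and -0.20 for scaffolds and adhesion genes. The Cadm genes, whose proteins also join across the cleft, were counted with the other adhesion genes, and moving them was not tried. None of these 3 members was called, and Cadm1, Cadm2 and Cadm3 had log2 fold changes of 0.15, -0.0033 and -0.19. The difference between the classes was not tested, and their ranges overlapped, from -0.48 to 0.23 for scaffolds and from -1.04 to 0.15 for adhesion genes.

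**Figure D2:**
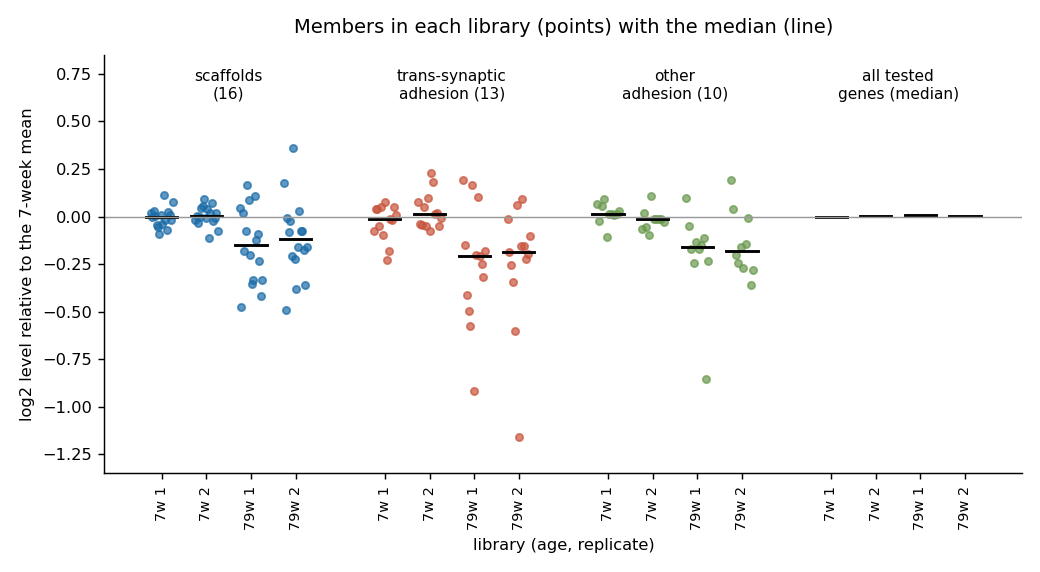
Each point is 1 gene in 1 library, as the log2 level (with 0.5 CPM added) relative to the 7-week mean, and black lines are medians; the last block gives the median of all 15292 genes tested. In both 79-week libraries the medians of the 3 classes lie between -0.20 and -0.12, and that of all genes at 0.01 or below.

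The calls rested on few libraries. Without 7-week replicate 1 no gene of the genome was called by edgeR and thus no member (15 members at an unadjusted p under 0.05), while DESeq2 then called 2 scaffold and 2 adhesion members. Without 7-week replicate 2, 1 scaffold gene, Dlg2, and 1 adhesion gene, Lrrtm3, stayed called. All 8 genes that fell kept their direction in every alternative run. Leaving out a library could hardly turn a sign, since both aged levels of each lay below both young ones. The other runs refit the same counts, so the kept direction adds no support of its own.

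**Figure D3:**
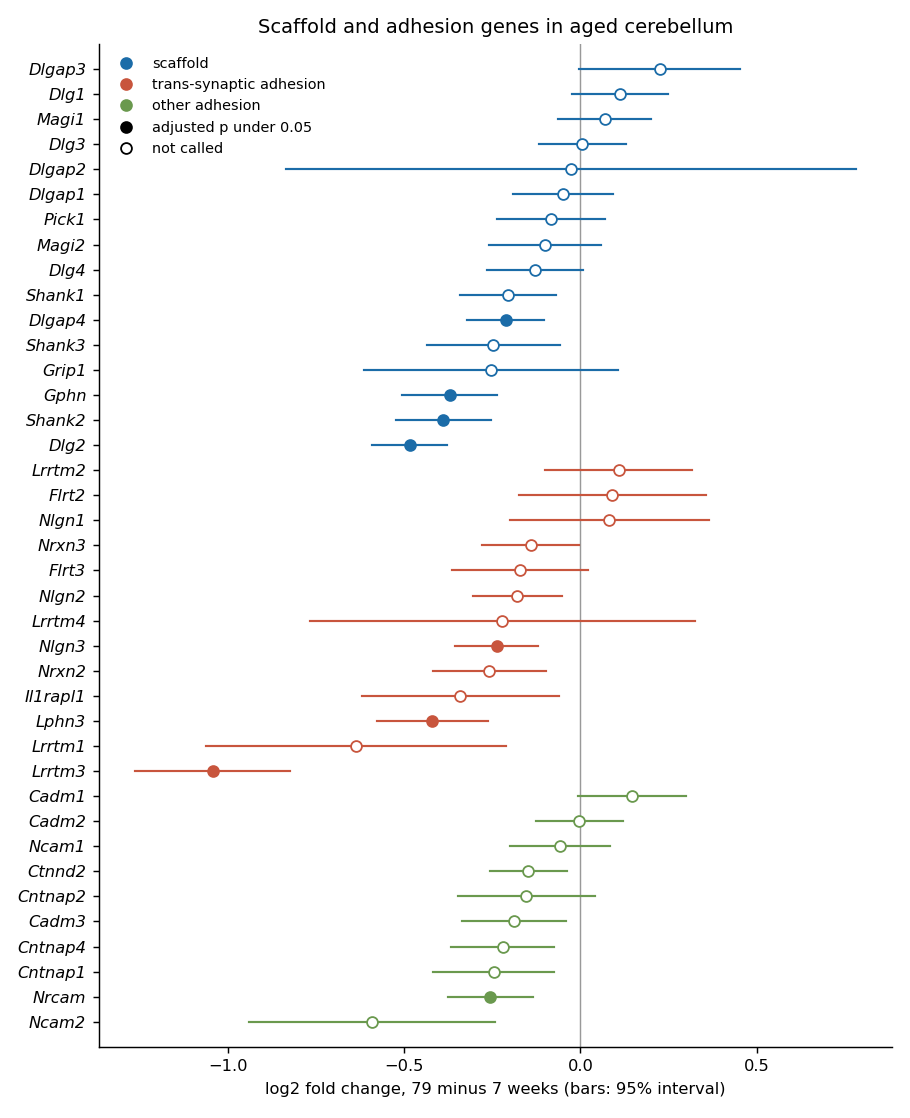
Log2 fold change (79 minus 7 weeks) of each of the 39 genes with its 95% interval from the fit, coloured by class; filled points passed an adjusted p of 0.05. Most points lie left of 0, the 8 filled ones all do, and Lrrtm3 lies farthest, at -1.04.

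Among the Dlg proteins, the scaffolds that anchor glutamate receptors and their partners, only Dlg2 was called. Dlg2 (PSD-93, ENSMUSG00000052572) was at 301 and 302 CPM in the 7-week libraries and at 217 and 215 CPM in the 79-week libraries. The replicates of each age nearly coincided and the ages were far apart (log2 fold change -0.48, SE 0.05, adjusted p = 0.00343 by edgeR). Dlg4 (PSD-95, ENSMUSG00000020886), the best known scaffold of excitatory synapses, was at 412 and 411 CPM and then at 363 and 389 CPM. Its aged libraries were both lower, but the gene was not called (log2 fold change -0.13, 95% interval -0.27 to 0.01, adjusted p = 0.211 by edgeR). Dlg1 (SAP97, ENSMUSG00000022770) was at 188 and 183 CPM and then at 191 and 210 CPM, so both aged libraries were slightly higher (log2 fold change 0.11, interval -0.02 to 0.25). Dlg3 (SAP102, ENSMUSG00000000881) was at 116 and 111 CPM and then at 115 and 112 CPM (log2 fold change 0.01, interval -0.12 to 0.13), with overlapping ages.

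Dlgap proteins bind the guanylate kinase domain of Dlg and hand the complex on to Shank, and 1 of the 4 fell. Dlgap4 (ENSMUSG00000061689) was at 294 and 290.1 CPM and then at 254 and 250.1 CPM (log2 fold change -0.21, SE 0.05, adjusted p = 0.0353 by edgeR). The ages did not overlap, but this call held in the fewest alternatives of the 8. It ended in the fit with the replicate block (adjusted p = 0.0521 by edgeR), with library size scaling (0.0776) and without each of the 4 libraries in turn, in a range of 0.0105 to 0.203 over 14 alternatives. Dlgap3 (ENSMUSG00000042388) leaned the other way, at 144 and 165 CPM and then at 164 and 198 CPM. The ages overlapped and it was not called (log2 fold change 0.23, SE 0.10, adjusted p = 0.191 by edgeR). It was called higher with the replicate block (adjusted p = 0.0489 by edgeR), without the low-count filter and without 79-week replicate 1 (log2 fold change 0.36), in a range of adjusted p from 0.0035 to 0.634. Dlgap1 (ENSMUSG00000003279) was at 474 and 503 CPM and then at 463 and 480.2 CPM, with overlapping ages. Dlgap2 (ENSMUSG00000047495) had few reads, 21 and 30 at 7 weeks and 31 and 26 at 79 weeks, and its interval of -0.84 to 0.78 leaves its direction unknown.

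All 3 Shank genes, which encode the deep layer of the postsynaptic density, had both aged libraries below both young ones. Shank2 (ENSMUSG00000037541) was at 565 and 579 CPM at 7 weeks and at 428 and 446 CPM at 79 weeks. It was the one of the 3 that was called (log2 fold change -0.39, SE 0.06, adjusted p = 0.0118 by edgeR). Shank1 (ENSMUSG00000038738) was at 731 and 724 CPM and then at 618 and 644 CPM (log2 fold change -0.20, adjusted p = 0.0717 by edgeR). Shank3 (ENSMUSG00000022623) was at 531 and 479 CPM and then at 400 and 451 CPM (log2 fold change -0.25, adjusted p = 0.101 by edgeR). Neither was called here, while DESeq2 called both. Over 14 alternatives adjusted p ran from 0.0114 to 0.293 for Shank1 and from 0.00471 to 0.426 for Shank3, and without 79-week replicate 1 Shank3 had a log2 fold change of -0.16.

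Gphn (ENSMUSG00000047454) encodes gephyrin, the lattice protein beneath glycine and GABA receptors. It was at 106 and 113 CPM at 7 weeks and at 85.6 and 83.9 CPM at 79 weeks. The ages did not overlap, and the fall passed the test (log2 fold change -0.37, SE 0.06, adjusted p = 0.0134 by edgeR). Its estimate lay between those of Dlgap4 and Shank2, scaffolds of excitatory synapses.

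The adaptors with several PDZ domains were not called in any of 4 cases by edgeR, DESeq2 or limma-voom, with 0 at an unadjusted p under 0.05. These are Pick1 and Grip1, which control the trafficking and anchoring of AMPA receptors, and the membrane scaffolds Magi1 and Magi2. Their log2 fold changes ran from -0.25 for Grip1 (interval -0.61 to 0.11) to 0.07 for Magi1 (interval -0.06 to 0.20). Pick1 lay at -0.08 (interval -0.24 to 0.07) and Magi2 at -0.10 (interval -0.26 to 0.06). Grip1 had 168 to 229 reads per library, which widens its interval.

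Neurexins organise the release site and bind several families of postsynaptic partners. Nrxn2 (ENSMUSG00000033768) was at 818 and 764 CPM at 7 weeks and at 634 and 689 CPM at 79 weeks, with no overlap. It missed the threshold (log2 fold change -0.26, SE 0.07, adjusted p = 0.0606 by edgeR). Of 14 alternatives 7 called it, DESeq2, limma-voom and the replicate block (adjusted p = 0.0499 by edgeR) among them, in a range of 0.00355 to 0.317. Nrxn3 (ENSMUSG00000066392) was at 490.5 and 485 CPM and then at 430 and 455 CPM (log2 fold change -0.14, interval -0.28 to -0.0037, adjusted p = 0.177 by edgeR).

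Among the neuroligins, their postsynaptic partners, Nlgn3 fell. Nlgn3 (ENSMUSG00000031302) was at 131 and 134 CPM and then at 111 and 114 CPM (log2 fold change -0.24, SE 0.05, adjusted p = 0.0319 by edgeR). The ages were apart and the replicates close, yet the call ended without 7-week replicate 1, 7-week replicate 2 or 79-week replicate 1 and with library size scaling (adjusted p = 0.0638 by edgeR), in a range of 0.00308 to 0.167. Nlgn2 (ENSMUSG00000051790), the neuroligin of inhibitory synapses, was at 395 and 401 CPM and then at 346 and 358 CPM (log2 fold change -0.18, interval -0.30 to -0.05, adjusted p = 0.0823 by edgeR). Nlgn1 (ENSMUSG00000063887), found mainly at excitatory synapses, was at 29.2 and 37.7 CPM and then at 35.6 and 35.5 CPM. Its aged levels lay between the young ones (log2 fold change 0.08, interval -0.20 to 0.36).

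Lrrtm proteins are leucine-rich postsynaptic partners of neurexins and of heparan sulfate proteoglycans, and they held the largest change. Lrrtm3 (ENSMUSG00000042846) was at 113 and 102 CPM at 7 weeks and at 56.6 and 47.7 CPM at 79 weeks. The higher aged library still lay well below the lower young one (log2 fold change -1.04, SE 0.09, adjusted p = 0.00328 by edgeR). It was called in 13 of 14 alternatives, and its log2 fold change ran from -1.17 to -0.93. Lrrtm1 (ENSMUSG00000060780), at 7.54 and 7.00 CPM and then at 4.71 and 4.62 CPM, was also lower in both aged libraries but rested on 91 to 145 reads per library and was not called (log2 fold change -0.64, SE 0.18, adjusted p = 0.0721 by edgeR). Lrrtm2 (ENSMUSG00000071862) did not follow them, at 43.9 and 50.2 CPM and then at 52.7 and 48.9 CPM (log2 fold change 0.11, interval -0.10 to 0.32). Lrrtm4 (ENSMUSG00000052581) was at 4.36 and 6.18 CPM and then at 4.45 and 4.62 CPM (interval -0.77 to 0.33). The intervals of Lrrtm3 and Lrrtm2 did not overlap.

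Genes of the Lrrtm family lie inside genes of alpha-catenins in RefSeq's table, Lrrtm1 in Ctnna2, Lrrtm2 in Ctnna1 and Lrrtm3 in Ctnna3, and Flrt3 lies inside Macrod2. The strand setting of the counting is not given, so reads of a host gene and its guest are separated only where their exons do not overlap. Ctnna3 was at 10.5 and 12.2 CPM and then at 8.55 and 10.4 CPM (log2 fold change -0.27, adjusted p = 0.335 by edgeR). Ctnna3 was thus not called, while Lrrtm3 was, though both aged libraries of Ctnna3 lay below both young ones. The other hosts were not called either, and each had the sign of its guest. Their log2 fold changes were -0.25 for Ctnna2, 0.13 for Ctnna1 and -0.12 for Macrod2. The part of host reads in the guests' counts was not tested.

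Lphn3 (now Adgrl3, ENSMUSG00000037605) encodes latrophilin 3, an adhesion receptor coupled to G proteins that binds Flrt proteins and teneurins. It was at 158 and 169 CPM at 7 weeks and at 116 and 129 CPM at 79 weeks. The ages did not overlap and the fall passed the test (log2 fold change -0.42, SE 0.07, adjusted p = 0.0143 by edgeR). Of its Flrt partners, Flrt2 (ENSMUSG00000047414) was at 17.2 and 19.1 CPM and then at 20.8 and 18.0 CPM, and Flrt3 (ENSMUSG00000051379) at 32.7 and 31.0 CPM and then at 28.6 and 27.9 CPM. Neither was called, with intervals of -0.18 to 0.36 and -0.36 to 0.02. The interval of Lphn3, from -0.58 to -0.26, reached lower than both but overlapped that of Flrt3. Il1rapl1, which pairs with presynaptic receptor phosphatases, ranged from 14.7 to 15.6 CPM at 7 weeks and from 11.3 to 12.6 CPM at 79 weeks (log2 fold change -0.34, interval -0.62 to -0.06, adjusted p = 0.12 by edgeR).

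**Figure D4:**
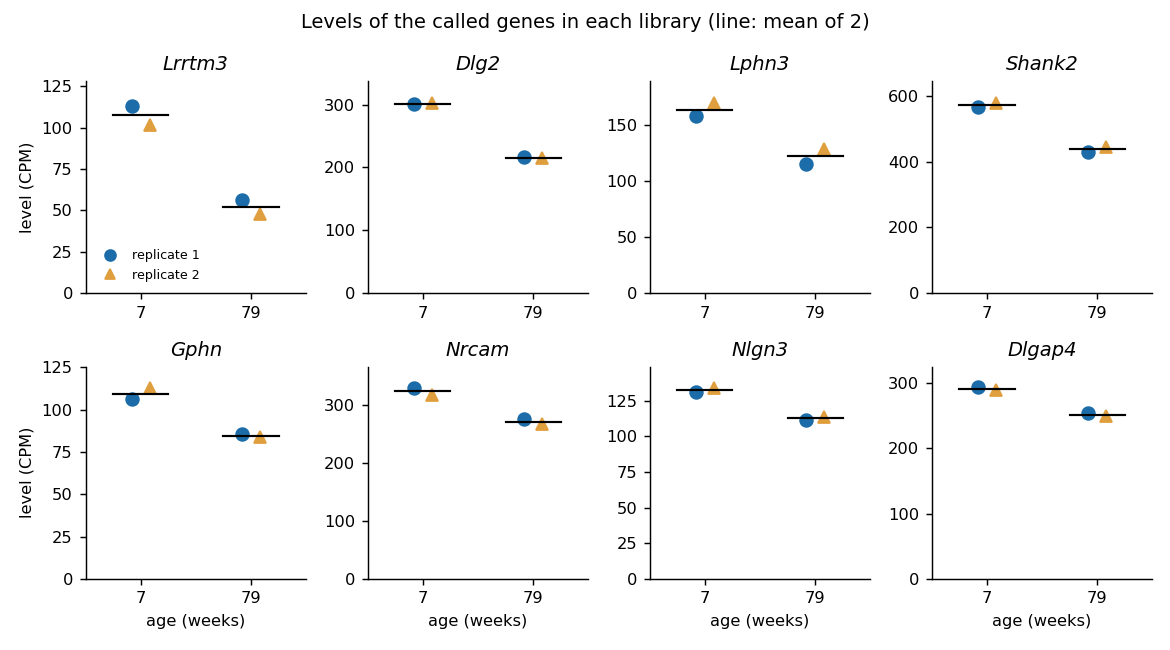
Level in CPM (vertical axes, each from 0) of the 8 genes that fell, by age in weeks, with replicate 1 as circles, replicate 2 as triangles and the mean of 2 libraries as a line. In every panel both 79-week points lie below both 7-week points, by the most for Lrrtm3.

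The other adhesion genes act along axons and at cell contacts as well as at synapses, and 1 of the 10 fell. Nrcam (ENSMUSG00000020598), an immunoglobulin adhesion protein of nodes of Ranvier and growing axons, was at 330 and 317 CPM and then at 275 and 267 CPM. The ages did not overlap (log2 fold change -0.26, SE 0.05, adjusted p = 0.0268 by edgeR), and the call ended with library size scaling (adjusted p = 0.0521 by edgeR) and without either 7-week library, in a range of 0.00141 to 0.19. Ncam2 (ENSMUSG00000022762) had the lowest estimate of the 10, at 37.7 and 37.1 CPM and then at 20.5 and 29.0 CPM. The aged libraries differed from each other and it just missed the threshold (log2 fold change -0.59, SE 0.15, adjusted p = 0.0528 by edgeR). It was called with the replicate block (adjusted p = 0.0256 by edgeR), with DESeq2 and in 5 further alternatives, in a range of 1.84e-07 to 0.27. Ncam1 (ENSMUSG00000039542), the main neural cell adhesion molecule, was at 472 and 465 CPM and then at 434 and 466 CPM (interval -0.20 to 0.08).

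Caspr proteins, encoded by the Cntnap genes, sit on the axon at its contacts with myelinating glia (Cntnap1 and Cntnap2) or on interneuron terminals (Cntnap4). In all 3 the aged libraries lay below the young ones, and edgeR called 0 of them (2 at an unadjusted p under 0.05), while DESeq2 called Cntnap1. Cntnap1 (ENSMUSG00000017167) was at 545 and 478 CPM and then at 431 CPM in both libraries (log2 fold change -0.25, SE 0.07, adjusted p = 0.0809 by edgeR). The summed myelinating oligodendrocyte markers were also lower, at 6351 and 5972 CPM at 7 weeks and 3814 and 5370 CPM at 79 weeks. The summed granule neuron and Purkinje cell markers were lower in both aged libraries as well. The part of any of these cells in the change of Cntnap1 was not tested. Cntnap2 and Cntnap4 had log2 fold changes of -0.15 (interval -0.35 to 0.04) and -0.22 (interval -0.37 to -0.07, adjusted p = 0.0715 by edgeR).

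Cadm proteins, also called SynCAMs, join both sides of the cleft by their immunoglobulin domains, though they were counted here with the other adhesion genes. Their genes did not move together. Cadm3 (ENSMUSG00000005338) was at 1328 and 1230 CPM and then at 1135 and 1111 CPM (log2 fold change -0.19, interval -0.34 to -0.04, adjusted p = 0.109 by edgeR). Cadm1 leaned up, from 107 to 117 CPM at 7 weeks and from 119 to 128 CPM at 79 weeks (log2 fold change 0.15, interval -0.01 to 0.30), and Cadm2 had a log2 fold change of -0.0033 (interval -0.13 to 0.12). By edgeR 0 of the 3 were called (1 at an unadjusted p under 0.05), and DESeq2 called Cadm3 lower. Cadm4, which is not among the members, was called lower (log2 fold change -0.22, adjusted p = 0.0383 by edgeR, named after its value was seen). Ctnnd2, which encodes delta-catenin, ranged from 217 to 221 CPM at 7 weeks and from 197 to 199 CPM at 79 weeks (log2 fold change -0.15, interval -0.26 to -0.04, adjusted p = 0.0929 by edgeR).

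Within families, the balance of reads between genes can be read in each library without any scaling, for pairs chosen after their values were seen and given with no test. There were 0.625 and 0.606 Dlg1 reads per Dlg2 read at 7 weeks and 0.883 and 0.978 at 79 weeks. The ratio of Dlgap3 to Dlgap4 went from 0.492 and 0.567 to 0.644 and 0.791, and that of Lrrtm2 to Lrrtm3 from 0.388 and 0.494 to 0.932 and 1.03. In each of these pairs both aged libraries lay above both young ones. The same held for Cadm1 to Cadm3, from 0.0879 and 0.0866 to 0.105 and 0.115, for Nlgn1 to Nlgn3, from 0.223 and 0.281 to 0.320 and 0.312, and for Ncam1 to Ncam2, from 12.5 in both libraries to 21.2 and 16.1. It did not hold for Shank3 to Shank2, at 0.940 and 0.827 and then at 0.933 and 1.01, where the ages overlapped. Such a ratio depends on transcript length, so its change with age, and not its size, is what the values show.

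**Figure D5:**
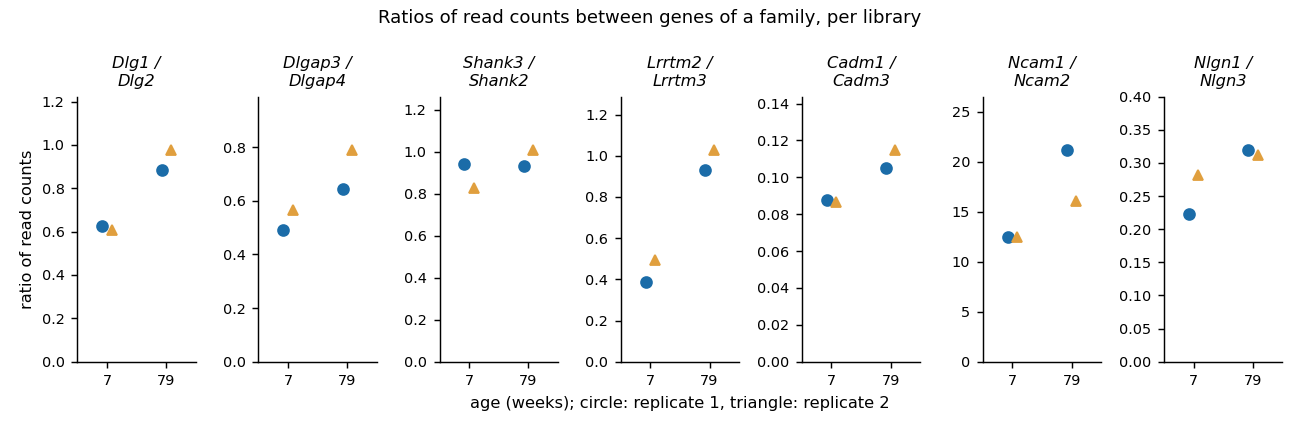
Ratio of raw read counts between 2 genes of a family in each library (vertical axes, each from 0), by age in weeks, with circles for replicate 1 and triangles for replicate 2. The ratio of Lrrtm2 to Lrrtm3 is at 0.388 and 0.494 at 7 weeks and at 0.932 and 1.03 at 79 weeks, and the Shank3 to Shank2 ratio overlaps between ages.

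Related scaffold genes outside the 39 leaned the same way. This list and the next ones were chosen with earlier results of these data known, so they give no independent support. Of 30 other postsynaptic scaffold genes 7 fell and 0 rose by edgeR, DESeq2 and limma-voom alike (1 higher at an unadjusted p under 0.05 by edgeR), with a median log2 fold change of -0.09. The share called lower was 23.3%, beside 4.68% of all genes tested. Lin7a, a partner of Cask, fell by 0.44 (SE 0.06, adjusted p = 0.00832 by edgeR), Homer1, which ties Shank to metabotropic receptors, fell by 0.68, Cask, a scaffold on the neurexin tail, fell by 0.38 and Tanc1 fell by 0.44 on the log2 scale.

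Other synaptic adhesion genes moved both ways, with 9 lower, 4 higher and 28 not called of 41 (median -0.14). The shares were 22% lower and 9.76% higher, beside 4.68% and 4.17% of all genes tested. Of the 9 that fell, 4 were Slitrk genes, whose products bind presynaptic phosphatases (Slitrk3 among them, named after its value was seen). Slitrk4 fell by 0.79 on the log2 scale (SE 0.07, adjusted p = 0.00328 by edgeR), Slitrk1 fell by 0.49 and Slitrk5 fell by 0.72, while Slitrk2 rose (log2 fold change 0.50, adjusted p = 0.031 by edgeR, named after its value was seen). Adgrl2, a second latrophilin, fell by 0.76 on the log2 scale. Adgrl1, the remaining latrophilin gene, was at 685.5 and 633 CPM and then at 520.2 and 565 CPM, and just missed the threshold (log2 fold change -0.28, adjusted p = 0.0508 by edgeR, named after its value was seen). Besides Slitrk2, the genes called higher were Tenm2, Mdga1 and Adgrb1, with log2 fold changes of 0.67, 0.84 and 0.29 (named after their values were seen). Of 17 tested axonal adhesion genes, with a median of -0.16, 0 rose (0 higher at an unadjusted p under 0.05 and by DESeq2 or limma-voom). Of the same genes 2 fell, or 11.8%, beside 4.68% of all genes tested. These were Chl1, which fell by 0.49, and Ntm, which fell by 0.24 on the log2 scale, both of the immunoglobulin family like Nrcam.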

How the data were processed

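Per the labels, cerebellar RNA was extracted with Trizol and sequenced from Universal Plus mRNA-Seq libraries. The deposited files hold raw read counts per Ensembl gene, made with cutadapt, STAR and HTSeq on build mm9, per the submitters' processing notes; the sources used here give no versions, annotation release or strand setting. HTSeq summary lines were removed before totals were taken; reads in no gene were 18.7% to 20.4% of each library. Symbols were matched to 32919 of 37991 identifiers, and Lphn3 through its RefSeq synonym.

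The 39 members, their classes, the related lists and the marker lists were chosen with earlier results of these data known. In R 4.3.3, edgeR 4.0.16 kept 15292 genes by filterByExpr (count of at least 10, total of at least 15), counts were scaled by TMM, and 79 was set against 7 weeks in edgeR's quasi-likelihood test, with age as the only term, adjusted by Benjamini-Hochberg over all tested genes at 0.05. SEs are the log2 fold change over the square root of F, and 95% intervals use the fit's degrees of freedom. Log2 levels per library use 0.5 CPM added. The fit was tested on simulated counts. Members called, those sharing a family with one, and the 2 not called with the highest mean CPM of each class are given by library; up to 4 called genes are named from each related list. A name outside that rule is marked.

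Replicate counts differed by more than sampling noise (chi-square per degree of freedom 7.4 at 7 weeks and 21.5 at 79 weeks). These values sum over genes, so single genes can weigh heavily. The choroid plexus marker Ttr had 97720 and 50 reads in 79-week replicates 1 and 2, and its part was not measured. Alternatives were RLE and library size scaling, 2 other filters, DESeq2 1.42.0, limma-voom (limma 3.58.1), edgeR with robust=TRUE or legacy=FALSE, a replicate block, and leaving out each library in turn, where the lone library of an age is taken to scatter as the other age does. A crossed block and DESeq2 with each library left out were added after the data were seen. Planned checks of protein ends were not made. Promoter sequences are RefSeq's for GRCm38.p6, a build other than that of the counts, and were matched by symbol.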

Additional observations from a re-analysis of the deposited data

How the results depend on the processing

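Scaling by library size alone moved the median log2 fold change of scaffolds to -0.061 and of adhesion genes to -0.13, left 2 adhesion members called and gave 65.1% of all calls higher, against 47.1% with TMM. No low-count filter gave 1602 genes higher and 1449 lower, with 7 scaffold and 8 adhesion members called; DESeq2 called 8 adhesion members, with all libraries. RLE scaling and edgeR with legacy=FALSE changed no member's call. With the replicate block 4 scaffold and 6 adhesion members were called; it ended the call of Dlgap4 and added Dlgap3, Nrxn2 and Ncam2. Nothing in the labels pairs the libraries, and same-numbered libraries deviated with a correlation of -0.11 over genes. A crossed block, added after the data were seen, gave 1010 genes higher and 7 adhesion members called. Leaving out 1 library gave 0 to 1360 genes higher, 0 to 1065 lower, 0 to 5 scaffold and 0 to 7 adhesion members called, and medians of -0.16 to -0.12 and -0.21 to -0.19. In DESeq2, without 7-week replicates 1 and 2 and 79-week replicates 1 and 2 in turn, 81, 173, 145 and 337 genes were higher and 157, 257, 237 and 317 lower, 2 to 3 scaffold and 1 to 4 adhesion members were called, and medians ran from -0.16 to -0.12 (-0.14 without 7-week replicate 1) and from -0.22 to -0.19 (-0.20 without it). The lowest counts in edgeR came without 7-week replicate 1 and the highest without 79-week replicate 2; the cause was not tested. Signs turned only in genes that were not called: with library size scaling Dlgap1 stood at 0.0036, Dlgap2 at 0.028 and Cadm2 at 0.0505; with 1 library left out Nlgn1 ran from -0.0883 to 0.28, Dlg3 from -0.0285 to 0.033, Dlgap2 from -0.30 to 0.21, Lrrtm4 from -0.45 to 0.0551, Cadm2 from -0.0536 to 0.0401 and Flrt2 from -0.017 to 0.19. Depth limits Dlgap2, Lrrtm1 and Lrrtm4, which had under 150 reads in each library.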
